A study of Mus musculus with 23 samples.

Results

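The mitotic cell cycle genes are 42 named genes whose proteins drive entry into, passage through and exit from mitosis. They are a list of gene names, drawn up with earlier results of these data known though by no threshold on a measured value, and 40 of the 42 were measured here, out of 12099 genes in all. Ccnb1 and Aurkb were on the list but no probe set used here names them alone. Probe sets are the groups of short DNA probes with which an array reads a transcript. The 40 measured genes have 63 of the 19645 probe sets, and each gene is described by its probe set of highest mean over all arrays unless another is named.

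Expression was read on 23 Affymetrix arrays, each hybridised with RNA from whole dorsal skin of adult female mice of CD-1, an outbred stock. The skin was clipped, shaved and painted with AG825 or with its solvent DMSO 2 h before ultraviolet light (UV) or sham exposure. AG825, given as 4 mg in DMSO, is a small-molecule inhibitor (a tyrphostin) of Erbb2, a growth factor receptor with kinase activity, and the study asked how Erbb2 bears on the skin's response to UV. The UV dose was 10 kJ/m2, mostly UVB with the rest mostly UVA. The AG825 groups were skin 6 h after UV (4 arrays), 24 h after UV (3 arrays) and 6 h after sham (4 arrays). The DMSO groups were skin 6 h after UV (4 arrays), 24 h after UV (4 arrays) and 6 h after sham (4 arrays). All skin, sham skin included, had been shaved and had received DMSO. No sham skin was taken at 24 h, so the 24 h groups are set against sham skin of 6 h. Whether replicate letters mark separate animals is not given, so the p-values rest on the spread among these arrays, which may be technical.

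Mitosis is run by cyclin-dependent kinase 1 with the A and B cyclins, and ends when the anaphase-promoting complex marks cyclin B and securin for destruction. Most of the genes for this machinery are transcribed late in the cell cycle, in G2 and M phase, and are held silent in resting cells. In growing skin the dividing cells lie in the basal epidermis and, in larger numbers, in the matrix of the anagen (growing) hair follicle. In whole skin, fewer dividing cells and less of these transcripts per dividing cell cannot be told apart.

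Late cell cycle promoters are known to carry 2 short elements, the cell cycle genes homology region (CHR) and CCAAT boxes bound by the factor NF-Y. The CHR is bound by MuvB complexes, which repress these genes in resting cells and, with B-MYB and FOXM1, activate them in dividing cells. RefSeq promoter windows of 300 bases (GRCm38.p6, 250 bases before to 50 after the annotated gene start) were found for 34 of the 40 measured genes, the other 6 being Ccna2, Incenp, Kif20a, Tpx2, Smc4 and Foxm1. They were searched on both strands for TTTGAA or TTCGAA as CHR letters and for CCAAT, motifs that share no position in the windows shown. The CHR letters were in the windows of 25 of 34 mitotic genes (73.5%), against 21.7% of all 27025 genes with a window. CCAAT was in 26 of 34 (76.5%), against 41.1% of all genes, and 23 of 34 (67.6%) held both, against 9.65%. A CHR match began within 50 bases of the gene start in 23 of the 34, against 6.12% of all genes. Such a match describes letters in a window, not a bound site.

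Of the windows below, those of Ccnb2, Cdk1 and Cenpf come from genes that fell after UV in DMSO skin and hold both motifs, that of Bub3 from a gene with both motifs that did not pass the test, and that of Birc5 from a gene that fell and has neither. The matched letters are in capitals on the strand shown, 5′ to 3′ along the gene. Ccnb2 lies at chr9:70421505-70421804 on the minus strand, Cdk1 at chr10:69352863-69353162 on the minus strand, Cenpf at chr1:189688037-189688336 on the minus strand, Bub3 at chr7:131560120-131560419 on the plus strand and Birc5 at chr11:117848987-117849286 on the plus strand.
Ccnb2: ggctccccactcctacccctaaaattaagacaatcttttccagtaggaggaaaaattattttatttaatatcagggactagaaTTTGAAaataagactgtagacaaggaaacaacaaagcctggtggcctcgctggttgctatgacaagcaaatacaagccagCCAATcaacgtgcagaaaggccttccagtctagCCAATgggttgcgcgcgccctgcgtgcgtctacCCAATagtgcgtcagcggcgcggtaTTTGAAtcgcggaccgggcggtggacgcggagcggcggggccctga
Cdk1: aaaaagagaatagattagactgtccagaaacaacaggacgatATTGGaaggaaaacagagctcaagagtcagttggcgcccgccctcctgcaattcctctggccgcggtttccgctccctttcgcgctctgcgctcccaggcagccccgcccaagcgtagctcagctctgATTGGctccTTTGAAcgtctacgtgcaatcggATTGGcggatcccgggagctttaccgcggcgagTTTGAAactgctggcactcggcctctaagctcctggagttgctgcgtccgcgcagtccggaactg
Cenpf: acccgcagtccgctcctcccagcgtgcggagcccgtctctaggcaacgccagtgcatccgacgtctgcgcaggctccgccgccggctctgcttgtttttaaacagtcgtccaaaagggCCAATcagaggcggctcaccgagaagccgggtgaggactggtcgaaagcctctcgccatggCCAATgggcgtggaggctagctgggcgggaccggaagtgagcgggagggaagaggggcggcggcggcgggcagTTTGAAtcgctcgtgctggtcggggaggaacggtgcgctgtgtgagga
Bub3: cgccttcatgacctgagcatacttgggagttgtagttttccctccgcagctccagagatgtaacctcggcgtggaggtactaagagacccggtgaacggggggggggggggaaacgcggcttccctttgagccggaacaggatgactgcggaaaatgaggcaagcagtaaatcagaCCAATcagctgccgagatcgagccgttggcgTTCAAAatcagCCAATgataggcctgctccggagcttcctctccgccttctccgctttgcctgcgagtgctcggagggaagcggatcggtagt
Birc5: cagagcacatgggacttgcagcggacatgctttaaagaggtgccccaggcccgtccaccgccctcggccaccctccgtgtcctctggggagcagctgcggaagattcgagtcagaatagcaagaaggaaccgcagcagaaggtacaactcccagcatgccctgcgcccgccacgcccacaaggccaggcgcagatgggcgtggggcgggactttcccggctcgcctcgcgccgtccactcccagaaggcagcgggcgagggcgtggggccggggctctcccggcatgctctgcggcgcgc

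In Ccnb2 the CHR match nearest the start began at base 5 of the transcript, and in Cenpf at base 3. The nearest match in Cdk1 began 15 bases before the start, and the match in Bub3 43 bases before it. Along all 34 windows the CHR letters gathered around the start and CCAAT letters mostly lay upstream of them, as the plot of motif positions shows. Pttg1, Mad2l1, Plk4, Birc5, Nusap1 and Ncaph had neither motif in the window. Each of these 6 genes fell 6 h after UV in DMSO skin, where 31 of the 40 measured genes fell.

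**Figure D1:**
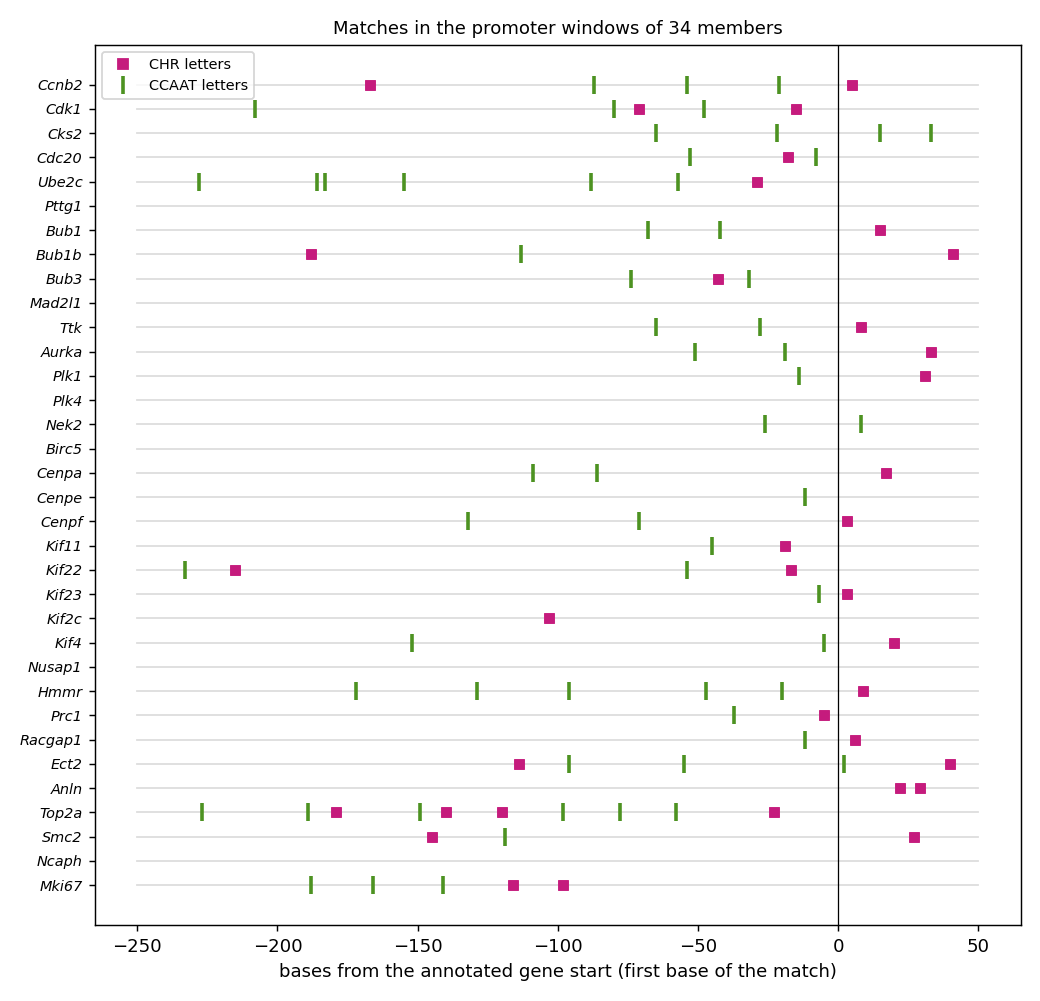
Positions of CHR letters (squares) and CCAAT letters (ticks) in the promoter windows of 34 mitotic genes, in bases from the annotated gene start on the x axis, 1 gene a row. CHR letters occur in 25 windows and CCAAT letters in 26, and in 23 windows a CHR match begins within 50 bases of the start.

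The arrays called 62.3% to 71.4% of probe sets present, with the lowest share on replicate E of DMSO skin 6 h after UV. Every array called all 8 basal keratinocyte markers present, as whole skin would. All 8 muscle markers, all 6 fibroblast markers, 5 of 7 endothelial markers, 4 of 5 adipocyte markers and 7 of 10 leukocyte markers were likewise present on every array. Of the 40 mitotic genes, 21 were called present on all 23 arrays and 33 on at least 20. Kif2c (5 arrays) and Bub1b (8 arrays) were present on under 12, so their probe sets sit close to background. Levels are log2 values normalised by the authors with RMA, and 1 unit is a 2-fold difference.

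A mitotic score was taken on each array as the mean of the 40 genes' log2 levels after centring each gene on its mean over the 23 arrays. In AG825 skin the score averaged 0.06 ± 0.22 after sham (SD, n = 4), -0.05 ± 0.26 at 6 h after UV (n = 4) and 0.18 ± 0.14 at 24 h (n = 3). In DMSO skin it averaged 0.34 ± 0.19 after sham, -0.46 ± 0.22 at 6 h and -0.03 ± 0.15 at 24 h (n = 4 each). The 4 DMSO arrays at 6 h lay between -0.67 and -0.15, below all 4 DMSO sham arrays, which lay between 0.20 and 0.61. The AG825 groups overlapped at 6 h and sham.

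Within a group the genes moved together from array to array. DMSO sham replicate A had 36 of the 40 genes above their group mean, and its score of 0.61 stood above the 0.20 to 0.28 of the other 3 sham arrays. AG825 sham replicate D had 36 of 40 above the group mean, AG825 6 h replicate A had 38, DMSO 6 h replicate C had 38 and DMSO 24 h replicate B had 38. Each of these 5 arrays was the highest of its group in score. Scores of other lists were taken in the same way. With so few arrays a group, most arrays are at an end of some list, so such a position does not set these 5 apart. DMSO sham replicate B, for one, had the highest hair follicle score of its group (1.57), and DMSO sham replicate D the highest suprabasal score (1.33). The values that follow only describe the 5 arrays. DMSO sham replicate A had a suprabasal keratinocyte score of -0.53, against 0.64 to 1.33 on the other 3 sham arrays, and the lowest leukocyte score (-1.84). DMSO 6 h replicate C had a hair follicle score of -0.53, against -3.14 to -1.38 on the others, and 69.2% of probe sets present, against 62.3% to 64.2%. AG825 6 h replicate A had a suprabasal score of -1.97, against 0.01 to 0.12 on the others, and the lowest leukocyte score (-0.65). AG825 sham replicate D had the lowest hair follicle score of its group (-0.29), and DMSO 24 h replicate B the lowest suprabasal score of its group (-1.05). The part of these differences in the mitotic scores was not tested.

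**Figure D2:**
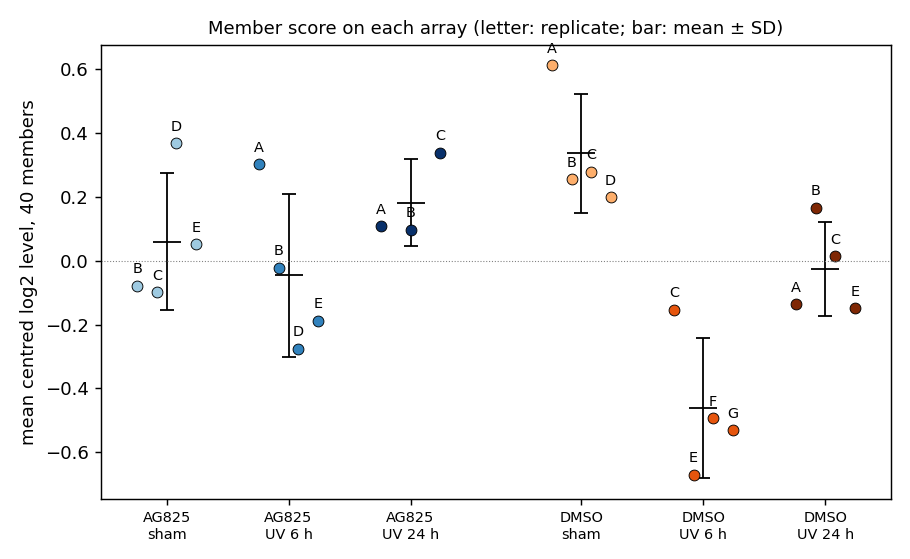
Mitotic score (mean centred log2 level of 40 genes, y axis) on each of 23 arrays, by group on the x axis, with replicate letters, and bars for mean ± SD. The 4 DMSO arrays 6 h after UV (-0.67 to -0.15) lie below the 4 DMSO sham arrays (0.20 to 0.61), while the AG825 groups overlap at sham and 6 h.

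At 6 h after UV, DMSO skin had lower mRNA for most of the mitotic machinery. Of the 40 genes, 31 fell at an adjusted p of 0.05 or below and none rose, in a limma fit across all probe sets with Benjamini-Hochberg adjustment. Over all 12099 genes, 12.5% fell by this rule. The log2 differences of the 40 ranged from -1.84 (Mki67) to -0.03 (Cenpe) with a median of -0.86, against a median of 0.01 over all genes. All 40 estimates were negative, against 48.3% of all genes. The 9 genes that did not pass were Bub3, Ttk, Aurka, Nek2, Cenpe, Kif2c, Kif4, Hmmr and Foxm1.

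Mki67, the gene of the proliferation marker Ki-67, which coats mitotic chromosomes, had the widest difference. Its log2 levels were 9.11, 7.94, 8.52 and 8.15 in DMSO skin 6 h after UV (replicates C, E, F and G), against 10.87, 10.09, 10.11 and 9.99 in DMSO sham skin (A to D). The groups did not overlap, and the sham array that stood highest was replicate A. The difference was -1.84 ± 0.31 (SE), or 3.57-fold lower, at an adjusted p of 0.000332.

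All 4 measured genes of the cyclin and kinase core fell. Cdk1, the kinase that triggers mitosis, had 9.37, 8.34, 8.48 and 8.83 in DMSO skin 6 h after UV, against 10.39, 9.93, 9.78 and 9.76 in sham skin. Its lowest sham array stood above its highest UV array. It was 2.32-fold lower (log2 difference -1.21 ± 0.21, adjusted p = 0.000475). Ccna2, which encodes cyclin A2, was 2.33-fold lower (-1.22 ± 0.20, adjusted p = 0.000233), with 8.89, 7.76, 8.50 and 8.40 after UV against 10.00, 9.64, 9.39 and 9.40 after sham. Ccnb2, which encodes cyclin B2, fell by 1.28 on the log2 scale, and Cks2, a small Cdk-binding protein, by 1.21.

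The 3 genes around the anaphase-promoting complex fell as well. Cdc20, the coactivator that turns the complex on at anaphase, had 9.80, 8.61, 8.70 and 8.61 in DMSO skin 6 h after UV, against 10.05, 10.04, 9.92 and 9.82 in sham skin. Replicate C of the UV group lay just under the sham range and the other 3 lay more than 1 log2 unit below it. The difference was -1.03 ± 0.22 (adjusted p = 0.00205). Ube2c, the ubiquitin-conjugating enzyme that works with the complex, fell by 1.27 and Pttg1, the separase inhibitor securin, by 0.89 on the log2 scale.

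In the spindle checkpoint, which delays anaphase until every chromosome is attached, 3 of 5 genes fell. Bub1, a checkpoint kinase, fell by 0.88 and Mad2l1, which inhibits Cdc20, by 0.87 on the log2 scale. A further Bub1 probe set, present on 17 arrays, differed by 0.09 ± 0.08 (adjusted p = 0.523). Bub1b was called absent on all 4 DMSO arrays 6 h after UV, so its level there was read close to background. Its estimate was 1.52-fold lower (-0.61 ± 0.15, log2 means 7.93 after UV and 8.54 after sham, adjusted p = 0.00784). Bub3, a partner of Bub1 that is also part of mRNA processing complexes, had 8.58, 8.36, 8.59 and 8.53 after UV against 8.57, 8.62, 8.57 and 8.86 after sham. These groups overlapped and the difference was -0.14 ± 0.09 (adjusted p = 0.271). Ttk, the kinase that starts checkpoint signalling, differed by -0.21 ± 0.17 (adjusted p = 0.418), with 7.26, 7.59, 7.86 and 7.47 after UV against 7.96, 7.57, 7.88 and 7.62 after sham.

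Of 4 measured mitotic kinases 2 fell. Plk1, which acts from mitotic entry to cytokinesis, had 8.07, 7.20, 7.17 and 7.62 in DMSO skin 6 h after UV, against 8.78, 8.70, 8.29 and 8.44 in sham skin. Its groups did not overlap and it fell by 1.03 ± 0.19 on the log2 scale (adjusted p = 0.000645). Plk4, which sets centriole duplication, fell by 0.67. Aurka, the spindle pole kinase, had 7.33, 7.33, 7.03 and 7.16 after UV against 7.84, 7.46, 7.23 and 7.63 after sham, a difference of -0.33 ± 0.13 at an adjusted p of 0.0882. Nek2, which separates centrosomes, had 6.74, 6.39, 6.48 and 6.62 after UV against 7.53, 6.88, 6.95 and 6.60 after sham (-0.43 ± 0.16, adjusted p = 0.0679).

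Among 5 centromere and chromosomal passenger genes, 4 fell. Cenpf, a kinetochore protein of G2 and M phase, had the smallest adjusted p of the 40 genes (0.000131). Its levels were 7.73, 6.63, 7.50 and 7.18 in DMSO skin 6 h after UV, against 9.30, 8.71, 8.71 and 8.61 in sham skin, a 2.98-fold lower level with a gap between the groups. A further Cenpf probe set, present on 18 arrays, differed by 0.002 ± 0.11 (adjusted p = 0.994). Birc5, the passenger protein survivin, had 8.80, 7.73, 8.20 and 7.93 after UV against 9.63, 9.20, 8.996 and 9.03 after sham (-1.05 ± 0.22, adjusted p = 0.00232). Cenpa, the histone H3 variant of centromeres, fell by 1.15 on the log2 scale. Incenp, the scaffold that holds Aurora B, fell by 0.46 (adjusted p = 0.0308) with overlapping groups, and it lost its call when DMSO sham replicate A, B or C or DMSO 6 h replicate E or G was left out (adjusted p between 0.0658 and 0.105). Cenpe, a kinetochore motor, read 4.02, 3.94, 3.98 and 4.00 after UV against 3.94, 3.89, 3.95 and 4.25 after sham, a difference of -0.03 ± 0.09 (adjusted p = 0.872). Its levels were the lowest of the 40 genes in both groups, with Kif20a next (means 5.67 and 6.74). Though it was called present on 21 arrays, a fall from so low a level could be hard to read.

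Of 6 kinesins, the motors of the spindle and midzone, 4 fell. Kif23, a midzone motor needed for cytokinesis, had 8.70, 8.81, 8.34 and 8.21 in DMSO skin 6 h after UV, against 9.30, 9.11, 9.18 and 9.10 in sham skin (-0.66 ± 0.16, adjusted p = 0.00626). Kif20a, which carries passenger proteins to the midzone, fell by 1.06, Kif11, which pushes spindle poles apart, by 0.64, and Kif22, a chromosome arm motor, by 0.53. Kif4, the mouse chromokinesin, differed by -0.28 ± 0.12 (adjusted p = 0.10), with 7.71, 7.92, 7.41 and 7.74 after UV against 8.19, 7.84, 7.87 and 8.0 after sham. Kif2c, a microtubule depolymerase, had 8.18, 8.07, 7.95 and 7.99 after UV against 8.02, 8.16, 8.17 and 7.96 after sham (-0.03 ± 0.11, adjusted p = 0.862). Another Kif2c probe set, called present on 22 arrays, fell by 0.49 ± 0.12 (adjusted p = 0.00741).

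In the spindle and cytokinesis group 6 of 7 genes fell. Racgap1, which forms the centralspindlin complex with Kif23, had 7.97, 7.66, 7.52 and 7.88 in DMSO skin 6 h after UV, against 8.59, 8.31, 8.30 and 8.53 in sham skin (-0.67 ± 0.11, adjusted p = 0.000175). Prc1, the microtubule bundler of the midzone, had 6.69, 6.37, 6.19 and 6.41 against 7.39, 7.16, 7.25 and 7.22 in sham skin, with no overlap. Ect2, the RhoA exchange factor of cytokinesis, fell by 0.89, Anln, the ring protein anillin, by 0.92, Nusap1, a spindle microtubule protein, by 0.81 and Tpx2, the Aurora A activator, by 0.72. A further Nusap1 probe set, present on 17 arrays, differed by 0.07 ± 0.10 (adjusted p = 0.686). Hmmr, a spindle pole protein and hyaluronan receptor, had 7.40, 7.37, 7.54 and 7.67 after UV against 7.95, 7.74, 7.64 and 7.83 after sham (-0.29 ± 0.12, adjusted p = 0.0907).

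All 4 chromosome structure genes fell. Top2a, the topoisomerase that untangles sister chromatids, had 9.23, 8.15, 8.31 and 8.16 in DMSO skin 6 h after UV, against 10.44, 9.80, 9.77 and 9.52 in sham skin (2.67-fold lower, adjusted p = 0.000798). Replicate C was the highest UV array and replicate A the highest sham array, and the same arrays were the highest of their groups in 30 and in 35 of the 40 genes. The condensin genes Smc2, Smc4 and Ncaph fell by 1.09, 0.97 and 0.47 on the log2 scale. Foxm1, the transcription factor that activates many of these genes, had 8.77, 8.45, 8.45 and 8.70 after UV against 8.91, 8.76, 8.97 and 8.82 after sham, and its difference of -0.27 ± 0.10 did not pass (adjusted p = 0.0742).

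Of the 40 genes, 17 have more than 1 probe set, 23 further sets in all, of which 7 fell and none rose in this comparison. The further sets of Kif2c, Bub1, Cenpf and Nusap1 given above were singled out after their values were seen. The count of 31 genes lay between 29 and 32 when each array of the 2 groups was left out in turn. The shares of all genes in those fits are not given here. The count was 14 with the replicate letter as a block, where 7.04% of all genes fell. Letters F and G occur only in DMSO skin 6 h after UV, so under the block that group's level rests on replicates C and E alone. With GCOS signal at a pseudocount of 1, a table without DMSO 6 h replicate G, the count was 20 and 4.44% of all genes fell. The 17 genes that lost their call under the block included Cdc20, Bub1b, Birc5, Kif23, Prc1 and Top2a. Markers of other cells moved with the result. In DMSO skin 6 h after UV, 18 of 19 measured anagen hair follicle genes fell (median log2 difference -3.61) and 9 of 10 leukocyte genes and 7 of 7 neutrophil genes rose, as did 5 of 7 endothelial genes and 3 of 8 skeletal muscle genes, against 9.35% of all genes that rose. The hair follicle score ranged from -3.14 to -0.53 in DMSO skin 6 h after UV, against 0.91 to 1.57 in DMSO sham skin, and the leukocyte score from 0.65 to 0.96 against -1.84 to -0.99. The endothelial score ranged from 0.13 to 0.46 against -0.55 to -0.35, and the muscle score from 0.19 to 0.65 against -0.56 to 0.02. None of these 4 scores overlapped between the groups, nor did the neutrophil, fibroblast and adipocyte scores. The suprabasal keratinocyte, basal keratinocyte and T cell scores did overlap. Probe sets called present averaged 64.9% ± 3.0 after UV and 68.5% ± 2.4 after sham (SD, n = 4 each). None of the 40 genes passed when the hair follicle score or the leukocyte score was a covariate of the fit. Because neither score overlapped between the groups, such a fit can hardly separate UV from the score. The share of all genes that fell in these fits is not given here. Of the hair follicle list, Shh was called present on no array. The basal keratinocyte score ranged from -0.48 to 0.01 after UV and from -0.004 to 0.15 after sham, with 2 of 8 genes fallen. The part of these cell types and of the share present in the mitotic genes' difference was not tested.

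**Figure D3:**
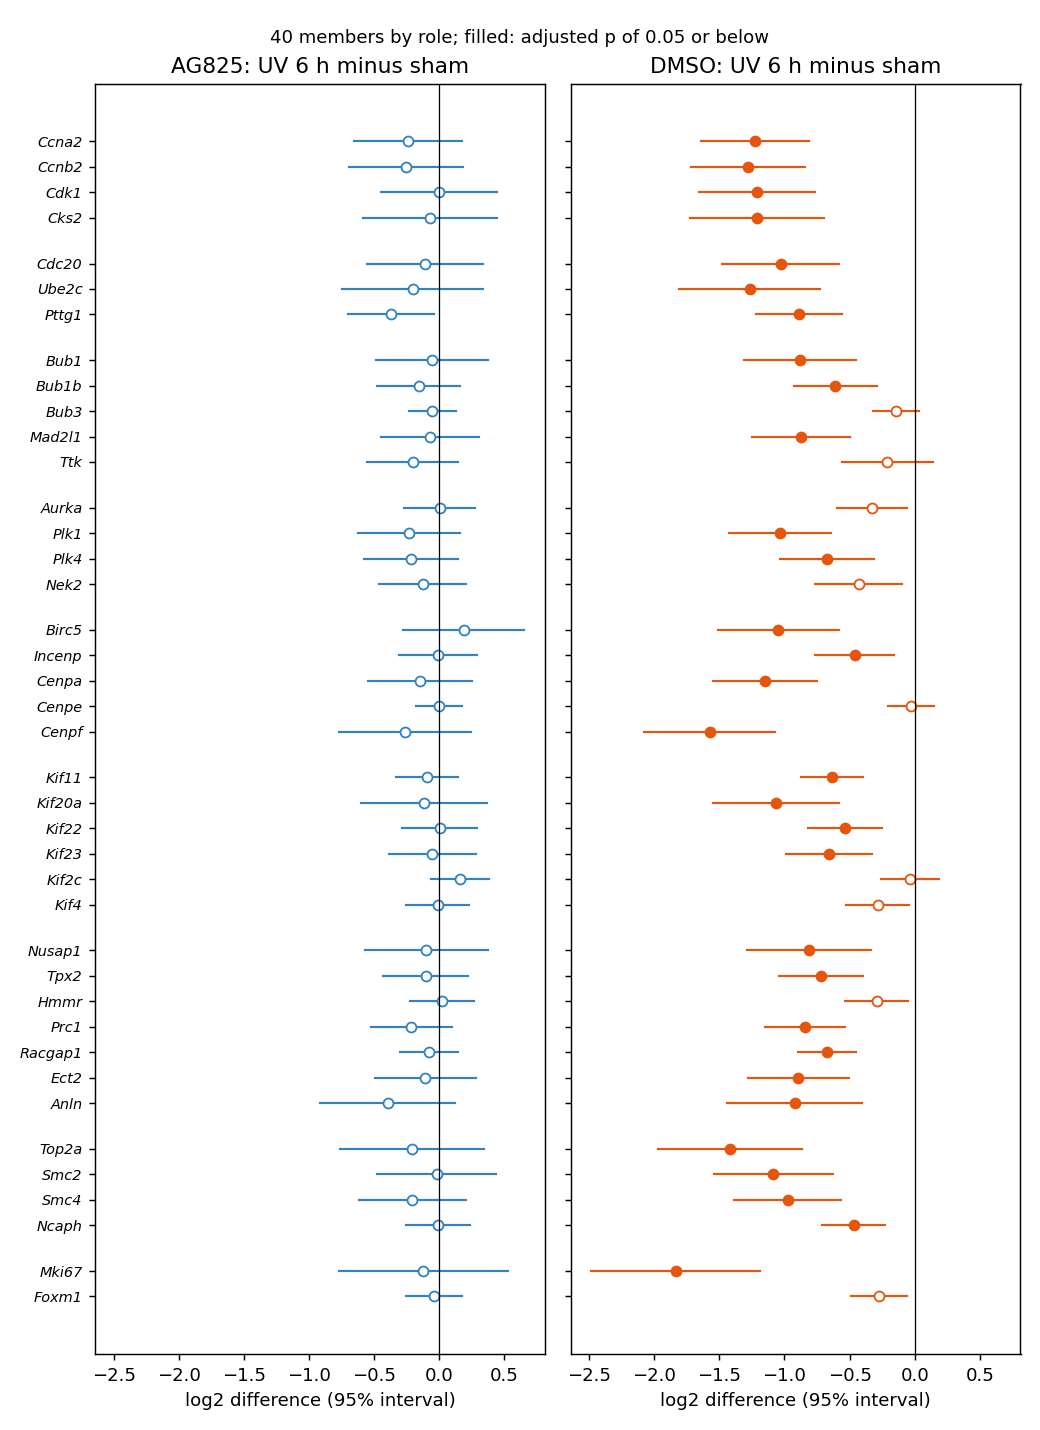
Log2 difference between skin 6 h after UV and sham skin (x axis) for 40 mitotic genes in rows by role, AG825 on the left and DMSO on the right, with 95% intervals and filled points for an adjusted p of 0.05 or below. In DMSO skin 31 points are filled and all 40 lie below 0, and in AG825 skin none is filled.

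In AG825-treated skin 6 h after UV, no mitotic gene passed the test against AG825 sham skin. Over all genes, 1.49% fell by the same rule. At an unadjusted p under 0.05 Pttg1 was lower, 1 of 40, against 8.98% of all genes. The log2 differences of the 40 ranged from -0.39 (Anln) to 0.19 (Birc5) with a median of -0.10, and 34 of 40 were negative, against 45.0% of all genes.

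Mki67 had 10.56, 9.55, 9.10 and 8.99 in AG825 skin 6 h after UV (replicates A, B, D and E), against 9.63, 9.39, 10.13 and 9.52 in AG825 sham skin (B, C, D and E). The UV arrays spanned the whole sham range, replicate A above it and D and E below it. The difference was -0.12 with a 95% interval of -0.77 to 0.53. For Cdk1 the levels were 10.01, 9.59, 9.11 and 9.28 after UV against 9.25, 9.23, 9.91 and 9.60 after sham, a difference of 0.00 with an interval of -0.44 to 0.44.

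Pttg1 had the smallest adjusted p (0.26), with 7.90, 8.08, 7.67 and 7.74 in AG825 skin 6 h after UV against 8.18, 7.78, 8.57 and 8.36 after sham. Birc5 had 9.31, 8.97, 8.62 and 8.38 after UV against 8.54, 8.17, 9.07 and 8.75 after sham. In both genes the groups overlapped. None of the 19 hair follicle genes passed in this comparison, and 5 of 10 leukocyte genes and 3 of 7 neutrophil genes rose, against 1.9% of all genes. The hair follicle score ranged from -1.86 to 1.15 after UV against -0.29 to 1.51 after sham. The order of the arrays differed between the scores. UV replicate D had the lowest mitotic score (-0.28) and the lowest hair follicle score, UV replicate E the second lowest mitotic score (-0.19) and the highest hair follicle score, and sham replicate D the highest mitotic score of the sham arrays (0.37) and the lowest hair follicle score. The mean difference of the 40 genes, -0.11, was -0.003 without sham replicate D, -0.03 without UV replicate D and -0.22 without UV replicate A.

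At 24 h after UV, DMSO skin was lower than sham skin in a few mitotic genes. Cenpf, Kif11, Prc1 and Pttg1 fell, 4 of 40, against 4.72% of all genes, and none rose. All 40 differences were negative, against 59.1% of all genes, with a median of -0.37 and a range from -0.99 (Mki67) to -0.04 (Aurka). The median over all genes was -0.04.

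Cenpf had 7.85, 8.24, 8.26 and 7.53 in DMSO skin 24 h after UV (replicates A, B, C and E), against 9.30, 8.71, 8.71 and 8.61 in sham skin, and was 1.82-fold lower (adjusted p = 0.0278). Kif11 had 7.17, 7.27, 7.38 and 7.18 against 7.64, 7.42, 7.62 and 8.04 in sham skin, a 1.35-fold lower level (adjusted p = 0.0213). Both genes had groups that did not overlap. Prc1 had 6.71, 7.02, 6.70 and 6.53 against 7.39, 7.16, 7.25 and 7.22 in sham skin (-0.51 ± 0.15, adjusted p = 0.0341). Pttg1 had 7.94, 7.96, 8.09 and 7.84 against 8.76, 8.49, 8.65 and 8.27 in sham skin (-0.59 ± 0.16, adjusted p = 0.0218). In both genes every sham array lay above every UV array. Mki67 had 9.12, 9.72, 9.57 and 8.69 after UV, below each of the sham arrays given above, and its adjusted p was 0.0513. The further probe sets given next were named after their values were seen. That of Cenpf differed by -0.10 ± 0.11 (adjusted p = 0.751) and that of Pttg1 by -0.26 ± 0.10 (adjusted p = 0.141). A further Kif11 set fell by 0.49 ± 0.14 (adjusted p = 0.0324), and another differed by -0.23 ± 0.18 (adjusted p = 0.562). A further Ccna2 set fell by 0.495 ± 0.14 (adjusted p = 0.0282).

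These 4 calls changed with the arrays that entered the fit. The count was 0 without DMSO 24 h replicate A or replicate E, 1 with DMSO sham replicate A left out and 2 with sham replicate B, C or D left out. It was also 0 in the dChip and GCOS summaries of the same arrays. The shares of all genes that fell in these fits are not given here. Without replicate A of the sham arrays the Cenpf difference was -0.71. Replicate E at 24 h had a hair follicle score of -1.71, below the 0.13 to 0.93 of the other 3 arrays. In DMSO skin at 24 h 4 of 19 hair follicle genes fell, against 4.72% of all genes, and 10 of 10 leukocyte genes rose, against 5.89%. With the leukocyte score as a covariate the mean difference of the 40 genes was 0.11, against -0.36 without it. That score ranged from 0.27 to 1.385 in DMSO skin at 24 h, against -1.84 to -0.99 after sham. With no overlap between the groups, this fit can hardly separate UV from the score.

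In AG825 skin 24 h after UV, 1 of the 40 genes rose against AG825 sham skin and none fell, and 4.27% of all genes rose. The gene was Birc5, at 9.40, 9.41 and 9.65 after UV (replicates A, B and C) against 8.54, 8.17, 9.07 and 8.75 after sham. It was 1.81-fold higher (0.86 ± 0.24, adjusted p = 0.0426) with every UV array above every sham array. The call was lost without any 1 of the 3 UV arrays or of AG825 sham replicates B, C and E (adjusted p between 0.0744 and 0.158). Cks2 was higher by 0.59 ± 0.27 (adjusted p = 0.211), and the median of the 40 was 0.06 with 22 positive, against 41.4% of all genes. The mean difference of the 40, 0.12, was 0.04 without UV replicate C and 0.22 without sham replicate D. Mki67 had 9.94, 9.80 and 10.29 after UV, within and above the sham range of 9.39 to 10.13, a difference of 0.34 with an interval of -0.36 to 1.04. Of the hair follicle list, 1 of 19 genes fell, and 7 of 10 leukocyte genes rose.

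**Figure D4:**
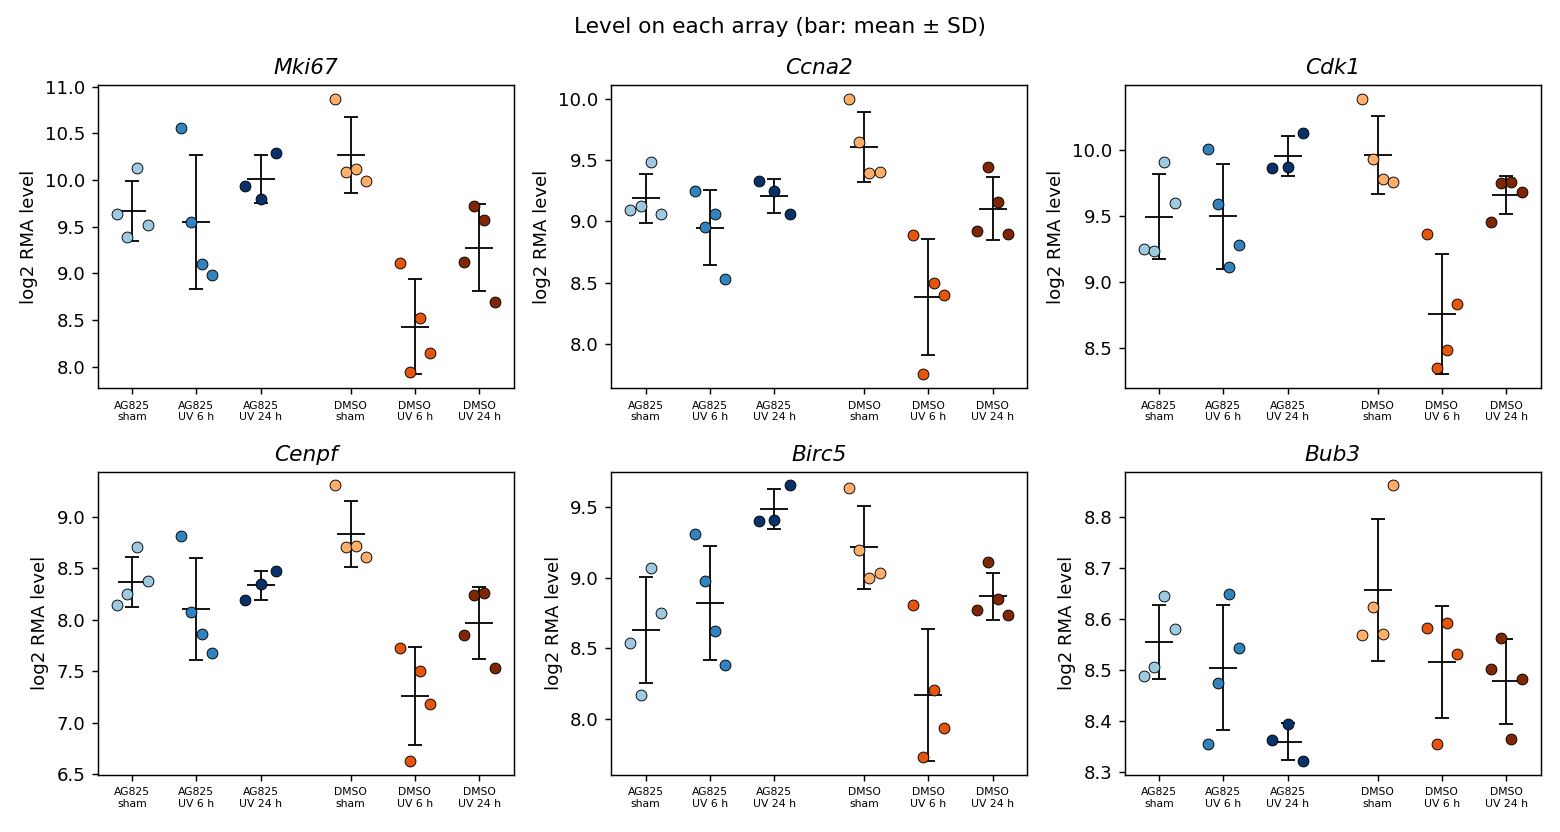
Log2 RMA level (y axis) of 6 mitotic genes on each array, by drug and exposure on the x axis, with bars for mean ± SD. In Mki67, Ccna2, Cdk1, Cenpf and Birc5 the 4 DMSO arrays 6 h after UV lie below all DMSO sham arrays, Birc5 is highest in AG825 skin at 24 h on average, and the DMSO groups of Bub3 overlap at 6 h and sham.

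Between 6 h and 24 h after UV, no mitotic gene passed in either drug group. In DMSO skin 0.0331% of all genes were higher at 24 h by the adjusted rule, and at an unadjusted p under 0.05 26 of 40 mitotic genes were higher, against 7.13% of all genes, and none lower. Cdk1 had the smallest adjusted p (0.087), with 9.45, 9.75, 9.76 and 9.68 at 24 h against 9.37, 8.34, 8.48 and 8.83 at 6 h (0.91 ± 0.21). Its groups did not overlap, and DMSO 6 h replicate C was the highest array of its group. Without that array 10 of the 40 genes rose, against 0.86% of all genes. In AG825 skin 0.207% of all genes were higher at 24 h by the adjusted rule, and 6 of 40 mitotic genes at an unadjusted p under 0.05, against 9.99% of all genes. Kif2c had the smallest adjusted p (0.104), with 7.77, 7.83 and 7.51 at 24 h against 8.31, 7.96, 7.96 and 8.06 at 6 h, read by a probe set near background. The comparisons with sham and between times share arrays.

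No mitotic gene passed the test between AG825 and DMSO skin after sham, at 6 h or at 24 h after UV. In each of these 3 comparisons 0% of all 12099 genes passed in the direction counted here. The AG825 sham arrays were lower in 39 of 40 genes (median -0.31), and 7 of 40 were lower at an unadjusted p under 0.05, against 0.579% of all genes. Birc5 was lower by 0.59 with a 95% interval of -1.05 to -0.12, and Mki67 by 0.60 with an interval of -1.25 to 0.05, each at an adjusted p of 1.

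At 6 h after UV the AG825 arrays were higher in 38 of 40 genes (median 0.38, against -0.002 over all genes). At an unadjusted p under 0.05, 22 of 40 were higher, against 5.28% of all genes. Mki67 was higher by 1.12 with an interval of 0.47 to 1.77 (adjusted p = 0.412), with 10.56, 9.55, 9.10 and 8.99 in AG825 skin against 9.11, 7.94, 8.52 and 8.15 in DMSO skin. AG825 replicates D and E lay just below the highest DMSO array, so the groups overlapped. Smc2, the condensin subunit, was higher by 0.77 with an interval of 0.31 to 1.23, with groups that did not overlap. In the same comparison all 19 hair follicle genes were higher and all 10 leukocyte genes lower in AG825 skin, where 49.5% of all genes were higher. All 7 neutrophil, 7 endothelial, 8 muscle, 6 fibroblast, 5 adipocyte and 4 T cell genes were lower too. So were 5 of 6 suprabasal and 3 of 8 basal keratinocyte genes. None of these marker genes passed the adjusted test. The score difference of 0.42 was 0.18 without the 3 arrays of lowest percent present, 2 of them in the DMSO group.

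At 24 h the AG825 arrays were higher in 33 of 40 genes (median 0.21), and 3 of 40, Ect2, Birc5 and Mki67, were higher at an unadjusted p under 0.05, against 4.87% of all genes. Birc5 had 9.40, 9.41 and 9.65 in AG825 skin against 8.77, 9.11, 8.85 and 8.74 in DMSO skin, a difference of 0.62 with an interval of 0.12 to 1.13. Its groups did not overlap, and its adjusted p was 0.46.

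The difference between the UV responses of AG825 and DMSO skin was tested as an interaction. Each term takes in the difference between the sham groups, where AG825 skin was lower in 39 of 40 genes (median -0.31). At 6 h no mitotic gene passed (smallest adjusted p 0.453), and 0% of all genes passed with a positive term. All 40 terms were positive, with a median of 0.62, against 0.02 and 53.2% positive over all genes. At an unadjusted p under 0.05, 29 of 40 were positive, against 4.49% of all genes. The Mki67 term was 1.72 with an interval of 0.80 to 2.63, that of Cdk1 1.21 with an interval of 0.58 to 1.84 and that of Birc5 1.24 with an interval of 0.58 to 1.90. At 24 h none passed (smallest adjusted p 0.855), with 0% of all genes passing with a positive term. There 38 of 40 terms were positive (median 0.51), and 15 of 40 at an unadjusted p under 0.05, against 3.23% of all genes. So the 31 calls in DMSO skin at 6 h against none in AG825 skin are not shown to be a difference between the drug groups at the adjusted threshold.

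**Figure D5:**
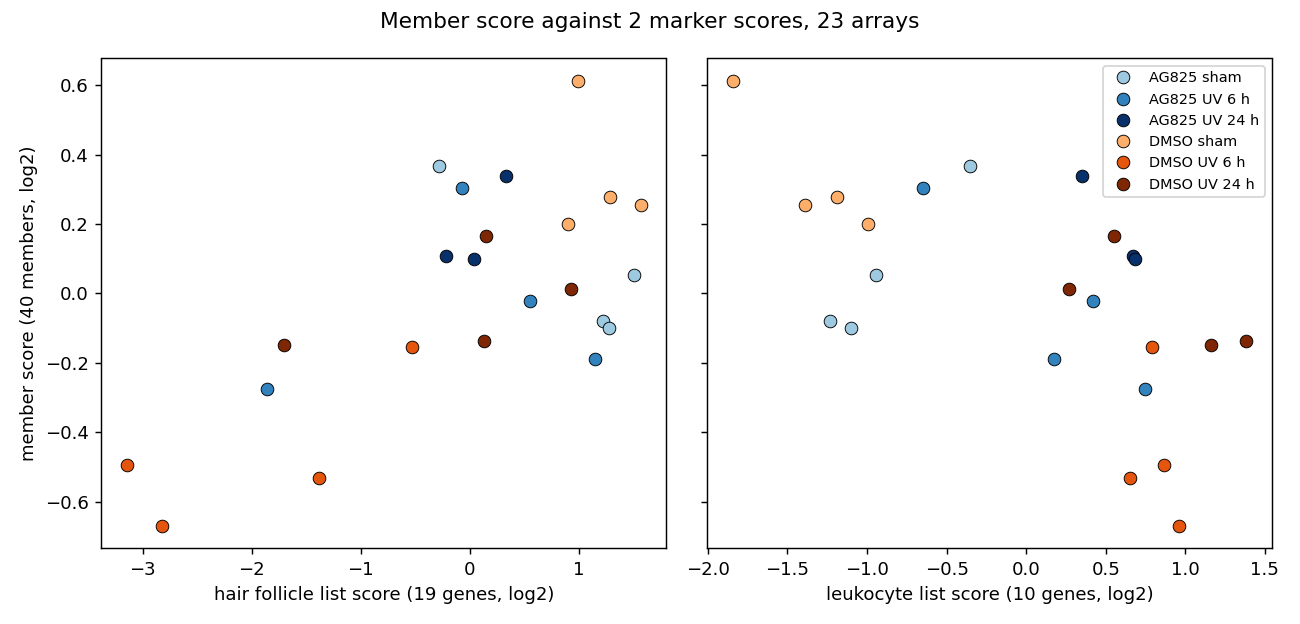
Mitotic score (y axis) on each of 23 arrays against the hair follicle list score on the left and the leukocyte list score on the right, coloured by group. The 4 DMSO arrays 6 h after UV have mitotic scores of -0.67 to -0.15, hair follicle scores of -3.14 to -0.53 and leukocyte scores of 0.65 to 0.96.

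Genes of the same pathways outside the 40 moved in part with them in DMSO skin 6 h after UV. Of 43 other genes of mitosis and cytokinesis 22 fell and 3 rose, with a median of -0.34, where 12.5% of all genes fell and 9.35% rose. Cdca3, a trigger of mitotic entry, fell by 1.30, Cdca5, the cohesin protector sororin, by 1.12 and Ncapd2, a condensin subunit, by 0.91. Nek6, a kinase of the NIMA family, rose by 0.90 ± 0.16, and Zwint and Ska1, kinetochore genes named after their values were seen, rose by 0.58 and 0.27. Nek6 rose in AG825 skin at 6 h too (0.79 ± 0.16, adjusted p = 0.00688), where 1.9% of all genes rose, and in both drug groups at 24 h.

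Of 30 S phase genes 22 fell, among them Tk1, thymidine kinase, by 1.08, Prim2, a primase subunit, by 0.86 and Pold1, the catalytic subunit of DNA polymerase delta, by 0.59. Of 14 subunits of the anaphase-promoting complex with its coactivator Fzr1, 4 fell and none rose (median -0.27), led by Anapc1 at -0.55. Among 15 regulators of the E2F, MuvB and MYB families 6 fell, including Rb1, the retinoblastoma gene, by 0.96, Rbl1, its relative p107, by 1.00 and Mybl2, which encodes B-MYB, by 0.42. Of 16 genes listed as CDK inhibitors and G1 cyclins, a list that also holds the kinase Cdk4, 6 fell and none rose. Cdk4 was at -1.07, the cyclin Ccnd2 at -1.31 and Cdkn1b, the inhibitor p27, at -0.89. Cdkn1a, the p53 target p21, differed by 0.36 ± 0.17 in DMSO skin (adjusted p = 0.149) and by 0.55 ± 0.17 in AG825 skin (adjusted p = 0.0930) at 6 h. In AG825 skin at 6 h none of the S phase, anaphase-promoting complex, E2F or CDK inhibitor genes passed.

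At 24 h in DMSO skin 3 of the 43 other mitosis genes fell, Cdc25c, Ska2 and Ncapd2, and Nek6 rose, where 4.72% of all genes fell and 5.89% rose. Of the 30 S phase genes 1, Pold1, fell, and of the 16 CDK inhibitors and G1 cyclins 2, Cdkn1b and Ccnd2, fell, by 0.64 and 0.78. In AG825 skin at 24 h 1 of the 30 S phase genes and 1 of the 16 CDK inhibitors and G1 cyclins rose, against 4.27% of all genes. Rrm1, the large subunit of ribonucleotide reductase, rose by 0.74 ± 0.17 (adjusted p = 0.0117), and Ccng1, a p53 target cyclin, by 1.15 ± 0.28 (adjusted p = 0.0210). No gene of the E2F, MuvB and MYB list or of the anaphase-promoting complex passed at 24 h in either drug group.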

How the data were processed

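The 23 arrays (22 in the GCOS table, which was used here without DMSO 6 h replicate G) were summarised by the authors. The main values are the deposited log2 table of 19645 probe sets from RMA (per the submitters' processing notes, no version given). Alternatives used 2 deposited tables of linear signal intensity with detection calls, which the authors made with dChip and GCOS, per the file headers. The platform annotation names 1 gene for 17825 probe sets, several for 445 and none for 1375. GCOS signals were scaled to a common median here.

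One mean per group was fitted to all probe sets (limma 3.58.1, R 4.3.3, eBayes, 20.75 degrees of freedom, two-sided). For each of 11 comparisons the Benjamini-Hochberg adjustment covered all probe sets, with calls at an adjusted p of 0.05. On simulated data for DMSO skin 6 h after UV, with 50 of 19645 probe sets changed at each size, it recovered 21 changes of 0.5, 46 of 1 and 50 each of 2 and 4 log2 units, with 14 false calls. The members, gene lists and tests were chosen with earlier results of these data known. Members with values on every array are Mki67, the highest of each role by mean, the smallest adjusted p of each comparison, those called at 24 h and those not called in DMSO skin at 6 h. Other lists give counts and up to 3 genes of smallest adjusted p, with Cdkn1a. Array signal over background and the number of arrays limit precision.

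Groups share replicate letters. Of 35 same-letter pairs 21 correlated over 0.1 in their deviations from group means (median 0.17, against -0.03 for different letters). In AG825 skin at 6 h and sham all 3 shared letters did. Of 21 arrays checked, 10 correlated best with an array of their own letter, so arrays of a letter may share a source of variation. What the letters mark is not given, so the main fit took no letters as pairs in any comparison. A fit with the letter as a block is given as an alternative. In it letters F and G, found only in DMSO skin 6 h after UV, add nothing to that group's level. Promoter windows are RefSeq's.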

Additional observations from a re-analysis of the deposited data

Results flagged for a closer look

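Dixon's test at the 95% level was applied to the mitotic score and to 22 named genes in each group of 4 arrays, 115 tests in all, of which 7 were past the critical value. Chance gives about 1 in 20. In DMSO sham skin replicate A stood above the other 3 arrays in Mki67 (10.87, against 9.99 to 10.11) and in Cenpf (9.30, against 8.61 to 8.71), and replicate D in Cenpe (4.25, against 3.89 to 3.95). In DMSO skin 6 h after UV, replicate C stood above the others in Cdc20 (9.80, against 8.61 to 8.70) and Top2a (9.23, against 8.15 to 8.31). In AG825 sham skin replicate D stood above the others in Ccna2 (9.48, against 9.06 to 9.12) and Top2a (10.11, against 9.33 to 9.46).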

How the results depend on the processing

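The direction of the 40 genes' mean difference in DMSO skin 6 h after UV (-0.80) was the same under all 10 alternatives run for it, from -1.03 with GCOS signal at a pseudocount of 1 to -0.33 with the leukocyte score as a covariate, a covariate chosen after seeing the data. Its count of 31 genes was 20 with GCOS signal at a pseudocount of 1, 14 with the replicate letter as a block, and 0 with the hair follicle or the leukocyte score as a covariate. Neither score overlapped between these groups, so the covariate fits can hardly separate UV from the score. With the leukocyte covariate the log2 differences of Kif22 and Ect2 at 6 h changed sign to 0.13 and 0.003, and that of Cenpf at 24 h in DMSO skin to 0.17. The 4 calls in DMSO skin at 24 h became 0 with dChip signal, GCOS signal at either pseudocount and either covariate, 7 with probe sets present on at least 3 arrays or with only the compared groups, and 8 with the mean of all probe sets. They ranged from 0 to 5 with an array left out, and the mean difference was 0.11 with the leukocyte covariate. The 1 call in AG825 skin at 24 h became 0 with dChip or GCOS signal, either marker covariate, the percent present covariate and the replicate block, and ranged from 0 to 1 with an array left out. The mean differences with the leukocyte covariate were 0.13 in AG825 skin at 6 h and 0.44 at 24 h. At 24 h the leukocyte score did not overlap with sham in either drug group. Those 24 h fits too can hardly separate UV from the score. Between 24 h and 6 h in DMSO skin the count was 2 with the leukocyte covariate and 0 to 10 with an array left out. For AG825 against DMSO at 6 h the mean difference was 0.18 without the 3 arrays of lowest percent present, and the interaction at 6 h (0.69) was then 0.46, against 0.46 with the leukocyte covariate and 0.91 with GCOS signal at a pseudocount of 1. The causes were not tested. Apart from the shares given above, the share of all genes called in these fits is not given here. With the replicate letter as a block, the count in AG825 skin at 6 h against sham stayed at 0 and the mean difference was -0.13. With the block the count in DMSO skin at 24 h was again 4, with Kif22 in place of Prc1.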
